A study of Mus musculus with 208 samples.

Results

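Back skin of conventionally raised mice was compared between the F2 and the F1 generation of the CRxCR control line, to see how far the baseline that the offspring of germ-free (GF) mice are measured against moved from one generation to the next. The F2 group holds 5 mice (skin_CRxCR_F2 1 to 5) and the F1 group 5 mice (skin_CRxCR_F1 1 to 5), which are 10 of the 208 samples of the series. They were chosen by these labels alone, with no use of the measured values. All 10 are labelled wild type, with no treatment, and by the study's methods they are adult C57BL/6 mice. F1 mice had conventionally raised (CR) parents on both sides. For F2, the study describes F1 females mated with new males and also F1 mice bred with each other, and which of these gave the sequenced skin is not given in the sources used here. The labels give neither age nor litter, so some mice of a group may be litter mates and p-values measure the spread between these mice only. Generation and the time of collection or sequencing cannot be told apart. For comparison, the same shift was measured in wild type skin of GFxGF mice (3 F2, and 3 F1 with GF parents on both sides) and of GFxCR mice (6 F2, and 3 F1 labelled GFmxCRf, with 1 GF parent).

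Adult mouse back skin alternates between a long rest of the hair follicles (telogen) and bursts of hair growth (anagen), in which matrix cells of the follicle divide fast and build hair keratins. Outside hair growth, most dividing cells of the skin lie in the basal layer of the epidermis and in the sebaceous glands. Whole back skin also holds dermal fibroblasts, fat, vessels, nerve, immune cells and the thin skeletal muscle beneath the dermis, and RNA of such a piece mixes them all. In bulk RNA, fewer cells of a type and less RNA per cell cannot be told apart.

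Values are CPM, read counts scaled to the same total in each mouse. The step between low values gave an approximate depth of 16.7 to 23.5 M reads in F2 and 11.3 to 21.8 M reads in F1, so 1 CPM stands for at least 11 reads. Predicted genes Gm26191 and Gm22405 carried identical values in every mouse and together took 21.8% to 47.8% of all CPM in F2, against 20.9% to 43.3% in F1 (exact permutation test, two-sided p = 0.516, n = 5 each, with 0.00794 the smallest p the design allows). These shares shift the CPM of every other gene, so main counts are also given after median ratio scaling, which sets the median gene of each mouse to a common level. Counts without that mention are of the deposited CPM alone. F1 replicate 4 stood apart with 60240 CPM of the mitochondrial ribosomal RNA mt-Rnr1, while the other 9 mice had 3806 to 7397 CPM. Xist was at 1794 to 2340 CPM in F2 and 1753 to 1940 CPM in F1, and the Y-linked Ddx3y did not exceed 1.45 CPM in F2 or 1.29 CPM in F1, as in female skin. F2 and F1 mice stand in separate tables. The same mouse in another table of its generation differed by a factor that was fixed for each gene, with a median size of 0.007 on the log2 scale and 0.177 (F2) and 0.16 (F1) at the 99th percentile. That factor cannot be measured between the F2 and F1 tables, which share no mouse, so a small difference of a single gene may hold some of it.

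The main shift was in genes of cell division, which were higher in F2 skin. Of the 16334 genes that reached 1 CPM in 5 or more mice, 54 (0.331%) differed at an adjusted p under 0.05 in limma with Benjamini-Hochberg adjustment, 45 higher (0.275%) and 9 lower (0.0551%) in F2. Of the 45, 14 belong to a list of 42 proliferation genes and 5 to the replication-dependent histone genes. A further 22 lie outside both lists, among them kinesins and kinetochore genes named below, and the other 4 are Stfa3, Ucp3 and the predicted genes Gm10359 and Gm12671. After median ratio scaling 196 genes passed, 146 higher (0.894%) and 50 lower (0.306%), and they included 53 of the 54. At the threshold the study used for skin, p under 0.05 before adjustment and more than a log2 step of 1, 196 genes (1.2%) passed, 134 higher and 62 lower. After median ratio scaling 148 were higher and 48 lower at that threshold. Before adjustment the balance ran the other way, with 406 genes higher (2.49%) and 762 lower (4.67%) at p under 0.05. Median ratio scaling brought these closer together, at 896 higher and 1071 lower. With array quality weights, which let mice count unequally, 198 genes were called higher and 638 lower. The median log2 fold change over all genes tested was -0.06, and -0.001 after median ratio scaling. The count moved with single mice: without F2 replicate 3, 13 genes passed, without F1 replicate 2, 26, and without F1 replicate 3, F2 replicate 1, F1 replicate 4 or F1 replicate 5, 31 to 34. Each of the 54 kept its direction whichever mouse was left out. All fold changes are of log2(CPM + 0.5), on which changes of weakly expressed genes come out too small.

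Mki67, the gene of the proliferation antigen Ki-67, was at 187, 97.5, 136, 91.9 and 105 CPM in the 5 F2 mice, against 32.1, 44.6, 57.5, 60.7 and 42.3 CPM in the 5 F1 mice. Every F2 mouse lay above every F1 mouse, and the means were 123 ± 39.6 and 47.4 ± 11.7 CPM (SD, n = 5 each; 1.35 on the log2 scale with a standard error of 0.23, limma adjusted p = 0.0173). Top2a encodes the topoisomerase that untangles replicated chromosomes. It was at 138, 69.0, 92.0, 76.5 and 90.1 CPM in F2 and at 25.2, 30.9, 42.3, 35.2 and 30.6 CPM in F1 (1.47 on the log2 scale with a standard error of 0.20, limma adjusted p = 0.00689). F2 replicate 1 held the highest value of both genes, and the groups did not overlap for either.

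**Figure D1:**
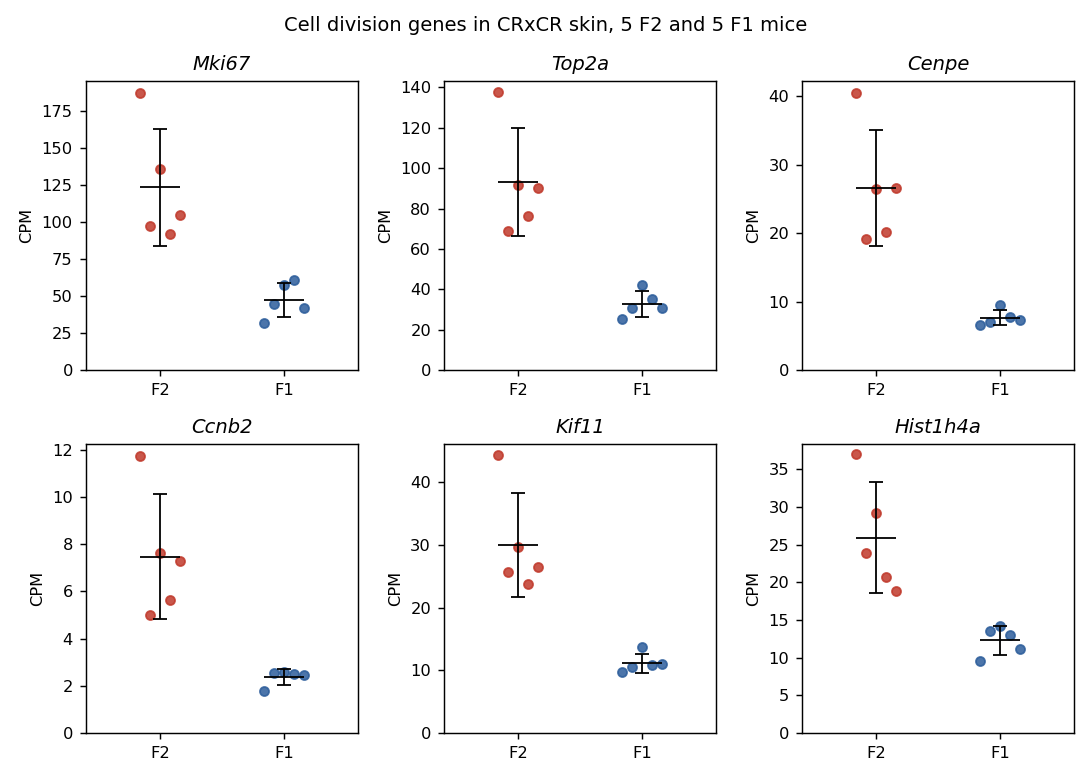
CPM (vertical axes, from 0) of 6 genes of cell division in the 5 F2 mice (red, left) and 5 F1 mice (blue, right) of the CRxCR line, 1 point per mouse, with the mean and SD in black. In every panel the lowest F2 mouse lies above the highest F1 mouse, with Mki67 at 91.9 CPM or more in F2 and 60.7 CPM or less in F1.

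This list and those below were chosen with earlier results of these data known, so their counts beside those of all genes are descriptions. All 42 proliferation genes passed the filter and all 42 had fold changes above 0, with a median of 0.99 beside -0.06 over all genes tested. The adjusted p passed for 14 of them (3 without F2 replicate 3, 9 without F1 replicate 4) and for 30 after median ratio scaling, and the unadjusted p for 36, where 2.49% of all genes tested were higher and 4.67% lower at that p. For 23 of the 42 the F2 and F1 mice did not overlap, with F2 higher, which held for 0.851% of all genes tested. The count past the adjusted p was unequal between the stages of division, and genes said to have risen here are those past that p. Of 5 genes of the mitotic cyclins, their kinase and the ubiquitin-conjugating enzyme Ube2c, 4 rose (Ccna2, Ccnb1, Ccnb2 and Cdk1, the median of the 5 being 1.33). Of 8 genes of the spindle, its motors and cytokinesis 5 rose (median 1.26), of 7 genes of the kinetochore, spindle checkpoint and passenger complex 3 rose (median 1.27), and so did both Mki67 and Top2a. None of 10 genes of replication licensing and the fork passed (median 0.53; 5 did after median ratio scaling). Likewise none of 5 genes of nucleotide supply and methylation maintenance (median 0.76; 3 after scaling) and none of 5 G1/S cyclins and cell cycle transcription factors (median 0.52; 1 after scaling) passed. At an unadjusted p under 0.05 all 5 mitotic cyclin genes, all 8 spindle genes, all 7 kinetochore genes, Mki67 and Top2a were higher. At that p 7 of the 10 licensing and fork genes were higher as well. So were 3 of the 5 genes of nucleotide supply and methylation maintenance and 4 of the 5 G1/S cyclins and transcription factors. The difference between these groups of genes was not tested.

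Cenpe, the kinesin that carries chromosomes to the spindle equator, had 40.5, 19.2, 26.4, 20.2 and 26.6 CPM in F2, against 6.63, 7.09, 9.55, 7.77 and 7.38 CPM in F1. The lowest F2 mouse lay above the highest F1 mouse, and the log2 fold change was 1.69 (standard error 0.21, adjusted p = 0.00531, limma). Kif11, the motor that pushes the spindle poles apart, had 44.4, 25.7, 29.6, 23.8 and 26.4 CPM in F2 and 9.66, 10.4, 13.7, 10.9 and 10.96 CPM in F1 (1.36, standard error 0.19, adjusted p = 0.00722). Ccnb2, a B-type cyclin that drives entry into mitosis with Cdk1, had 11.8, 4.999, 7.65, 5.65 and 7.29 CPM in F2 and 1.78, 2.55, 2.57, 2.48 and 2.47 CPM in F1 (1.42, standard error 0.22, adjusted p = 0.0123). No F2 mouse overlapped an F1 mouse for any of these 3 genes. Its partner Cdk1 averaged 9.71 ± 3.32 CPM in F2 and 3.61 ± 0.971 CPM in F1 (1.29, adjusted p = 0.0338, limma), and Ccnb1 13.8 ± 4.83 and 4.77 ± 0.943 CPM (1.40, adjusted p = 0.0137). Kif20a, a motor of the midzone in late mitosis, had the largest fold change of the list (2.34, adjusted p = 0.021), at 2.56 to 5.28 CPM in F2 and 0 to 2.24 CPM in F1, where 2 mice were listed at 0.

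Most genes that the naming rule picked outside the list also act in cell division, Ucp3 being described further on. Aspm, a spindle pole gene, averaged 24.8 ± 4.29 CPM in F2 and 8.95 ± 1.67 CPM in F1 (log2 fold change 1.42, adjusted p = 0.00561, limma). Casc5, which encodes the kinetochore scaffold KNL1, averaged 30.4 ± 8.87 and 10.5 ± 1.88 CPM (1.46, adjusted p = 0.00728). Kif15, a spindle motor, averaged 15.7 ± 5.12 CPM in F2 and 4.68 ± 1.20 CPM in F1 (1.62, adjusted p = 0.00728). Ect2, the exchange factor that starts the cleavage furrow, averaged 21.4 ± 5.25 and 7.76 ± 1.71 CPM (1.40, adjusted p = 0.00938), and the spindle-associated gene Ckap2 9.62 ± 1.83 and 3.26 ± 0.709 CPM (1.43, adjusted p = 0.00689). Depdc1a averaged 6.58 ± 1.84 CPM in F2 and 1.71 ± 0.469 CPM in F1 (1.67, adjusted p = 0.00689). Brca1, a gene of DNA break repair in dividing cells, averaged 13.01 ± 6.19 and 3.48 ± 1.02 CPM (1.67, adjusted p = 0.0289). None of these 7 genes overlapped between the groups, which the naming rule required.

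At the other end, some genes of replication and S phase entry lay closer together. Log2 fold changes ran from 0.33 to 1.11 (Cdt1) in the licensing and fork group. They ran from 0.13 to 1.02 (Uhrf1) in nucleotide supply and methylation maintenance. Among G1/S cyclins and cell cycle transcription factors they ran from 0.12 to 1.07 (Foxm1, the 1 that passed after median ratio scaling). These ranges overlapped those of the mitotic cyclin (0.70 to 1.42), spindle (0.85 to 2.34) and kinetochore groups (0.97 to 1.69). Pcna, the sliding clamp of the replication fork, averaged 31.5 ± 8.26 CPM in F2 and 24.5 ± 3.65 CPM in F1 (log2 fold change 0.33, adjusted p = 0.867, limma). The thymidine kinase gene Tk1 averaged 19.8 ± 4.71 and 17.8 ± 2.93 CPM (0.13), and E2f1, a transcription factor of S phase entry, 13.3 ± 3.78 and 11.9 ± 2.32 CPM (0.12). Rrm2, a subunit of ribonucleotide reductase, averaged 16.6 ± 3.64 CPM in F2 and 8.73 ± 0.925 CPM in F1 with no overlap, at an adjusted p of 0.0622 and of 0.00946 after median ratio scaling (limma).

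Replication-dependent histone genes make the histones of new chromatin during S phase, and their mRNAs carry no poly(A) tail. They are seen here because the libraries were made from total RNA after removal of ribosomal RNA. Of 67 such genes listed, 58 passed the filter and 56 of them had fold changes above 0, with a median of 0.79. The adjusted p passed for 5 (0.275% of all genes tested were called higher) and for 21 after median ratio scaling (0.894%), all higher in F2, and 19 had no overlap with F2 higher (0.851%). Hist1h4n had 64.3, 48.2, 62.1, 47.2 and 44.5 CPM in F2, against 19.5, 25.2, 22.2, 12.7 and 22.7 CPM in F1 (1.38 on the log2 scale with a standard error of 0.20, limma adjusted p = 0.00728). All 5 F2 mice were above all 5 F1 mice. Hist1h2ap had 30.3, 22.3, 26.7, 13.3 and 16.5 CPM in F2 and 4.52, 7.90, 7.77, 6.76 and 8.92 CPM in F1 (1.51, adjusted p = 0.0123), again without overlap. Hist1h3i (1.23), Hist1h3a (1.13) and Hist1h4a (1.02) were the others that passed. Histone genes of 1 class are near-identical copies, so the reads of single members may be split between them, and single names are less certain than the group. Hist1h4m, another H4 gene, was at 0.347 CPM in F2 replicate 3 and 0.313 CPM in F1 replicate 5 and listed at 0 in the other 8 mice. Erdr1, which is no member of these lists, averaged 0.747 ± 0.6004 CPM in F2 and 1.92 ± 0.693 CPM in F1 (-1.02, adjusted p = 0.236, limma).

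**Figure D2:**
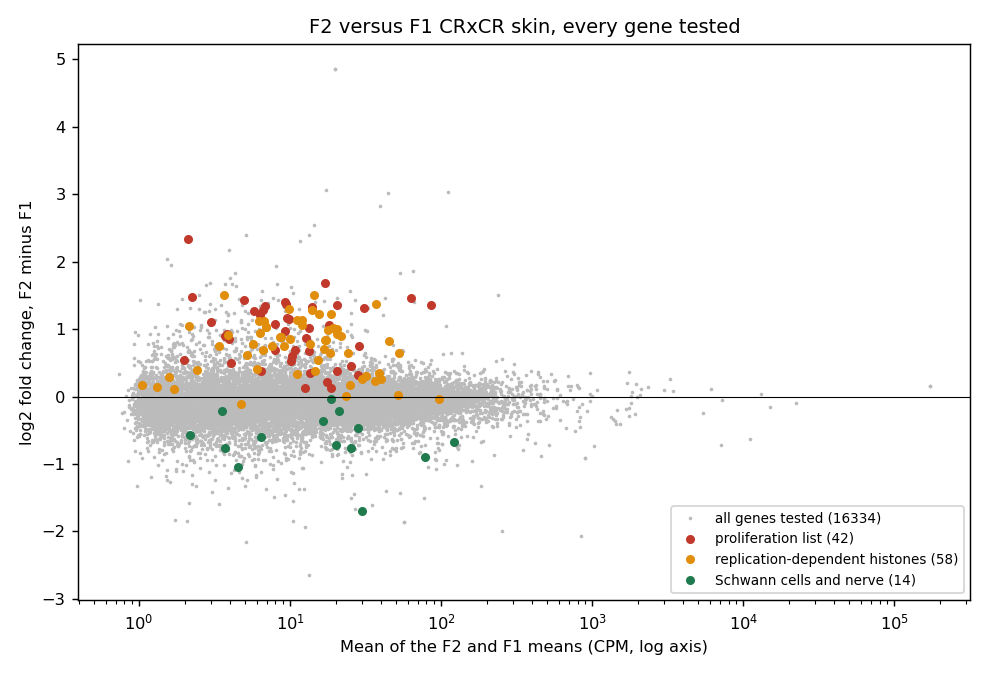
Log2 fold change of F2 minus F1 (vertical axis) against the mean of both group means in CPM (horizontal log axis) for the 16334 genes tested, with the proliferation list (42 genes, red), the replication-dependent histones (58 genes, orange) and the Schwann cell and nerve list (14 genes, green) marked. Every red point lies above 0 and every green point below 0.

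Mitotic genes are known to share promoter elements, CCAAT boxes bound by NF-Y and the cell cycle genes homology region (CHR) bound by MuvB complexes, which hold these genes silent in resting cells and turn them on in G2. The promoters of 4 mitotic genes and 1 histone gene that rose are printed to show these elements in members that moved together. They are the 200 bases before the RefSeq start (build GRCm38.p6), 5′ to 3′ on the strand of the gene, with the CCAAT box and the CHR letters, TTTGAA and also TTCGAA, in capitals on either strand.
Ccnb2 (chr9:70421555-70421754, minus strand): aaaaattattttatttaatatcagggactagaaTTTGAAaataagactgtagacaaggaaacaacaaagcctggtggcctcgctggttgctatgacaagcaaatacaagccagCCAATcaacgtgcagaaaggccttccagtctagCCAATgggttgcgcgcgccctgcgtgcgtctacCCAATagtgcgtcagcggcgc
Cdk1 (chr10:69352913-69353112, minus strand): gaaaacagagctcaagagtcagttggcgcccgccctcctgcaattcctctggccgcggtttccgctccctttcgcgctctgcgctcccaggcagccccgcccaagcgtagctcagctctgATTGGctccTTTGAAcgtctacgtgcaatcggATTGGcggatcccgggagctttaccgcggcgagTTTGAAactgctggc
Top2a (chr11:99024190-99024389, minus strand): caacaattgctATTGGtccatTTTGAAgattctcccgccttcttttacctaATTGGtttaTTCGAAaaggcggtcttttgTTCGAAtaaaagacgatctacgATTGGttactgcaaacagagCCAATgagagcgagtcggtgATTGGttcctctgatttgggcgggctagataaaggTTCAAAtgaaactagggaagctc
Kif11 (chr19:37376182-37376381, plus strand): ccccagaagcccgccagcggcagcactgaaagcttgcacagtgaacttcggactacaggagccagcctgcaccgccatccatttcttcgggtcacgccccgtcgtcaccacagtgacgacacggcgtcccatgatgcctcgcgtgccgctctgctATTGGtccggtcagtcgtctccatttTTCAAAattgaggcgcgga
Hist1h4a (chr13:23761250-23761449, minus strand, RefSeq symbol H4c1): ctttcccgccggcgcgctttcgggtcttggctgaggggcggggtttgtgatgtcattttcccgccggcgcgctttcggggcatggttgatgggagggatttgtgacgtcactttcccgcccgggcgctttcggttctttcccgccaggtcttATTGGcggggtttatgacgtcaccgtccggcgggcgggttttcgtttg

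In these 200 bases Top2a held 5 CCAAT boxes and 4 CHR matches, Ccnb2 held 3 and 1, Cdk1 held 2 and 2, Kif11 held 1 and 1, and Hist1h4a held 1 CCAAT box and no CHR match. The printed genes are examples. Among genes that rose and are not printed, Ccnb1, Cenpe, Cenpf and Aspm held CCAAT boxes but no CHR match in their 200 bases. Mki67, Cdc20 and Ect2 held both. Over 250 bases before the start, all 12 windows of the 11 matched proliferation genes that rose held CCAAT, against 34.9% of the 15108 windows of the genes tested. A CHR match was in 7 of the 12 (58.3%), against 13% of the windows of the genes tested. Of the 37 windows of the whole proliferation list, 28 (75.7%) held CCAAT and 11 (29.7%) the CHR letters, and of 53 histone windows 44 (83%) and 23 (43.4%) did. RefSeq windows were matched for 11 of the 14 genes that rose, 34 of the 42 listed, 52 of the 58 histone genes and 11910 of the genes tested. A match of letters is a description of the sequence and not a measured binding site.

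Keratins of the hair shaft and of the inner root sheath did not show growing hair in either generation. Hair shaft keratins, the main products of a growing follicle, were near 0 in all 10 mice: none of 14 listed genes exceeded 2.91 CPM in F2 or 3.15 CPM in F1, and 1 passed the filter. Of 58 keratin-associated protein genes, 40 were listed at 0 in every mouse and 1 (Krtap3-2) passed the filter, at up to 1.77 CPM in F2 and 4.86 CPM in F1. Of 13 listed genes of the inner root sheath 4 passed the filter, none of them at an unadjusted p under 0.05 (median -0.012). Its keratins Krt71, Krt25 and Krt27 stayed at or below 0.113 CPM in F2 and 0.187 CPM in F1. Other genes were not near 0: Tchh was at 1.65 to 3.82 CPM in F2 and 1.23 to 5.99 CPM in F1. Gata3, the highest of the 13, reached 98.98 CPM in F2 and 93.354 CPM in F1. Shh, the signal of the growing hair matrix, was at 0.217 to 0.680 CPM in F2 and 0.0899 to 0.367 CPM in F1. The Wnt effector gene Lef1 averaged 5.10 ± 1.57 CPM in F2 and 4.92 ± 1.29 CPM in F1 (log2 fold change 0.03). Of 16 tested regulators of the hair matrix none passed, and the median was -0.23. The pigment cell gene Dct, which follows hair growth in mouse skin, averaged 2.58 ± 0.920 CPM in F2 and 2.65 ± 1.10 CPM in F1 (-0.02, with a sign that turned to 0.03 after median ratio scaling).

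Markers of the resting follicle and its stem cells held no call. Of 14 tested genes of the bulge and resting follicle 13 had fold changes below 0, 5 at an unadjusted p under 0.05, with a median of -0.39. Over all genes tested 4.67% were lower at that p, and 38.2% had fold changes above 0. Krt15, a keratin of bulge stem cells, had 59.6, 93.4, 69.9, 50.6 and 50.01 CPM in F2, against 108, 125, 115, 295 and 71.4 CPM in F1 (-1.01, standard error 0.30, adjusted p = 0.252, limma). Fgf18, a signal of the resting follicle, had 1.30, 0.943, 1.75, 0.819 and 0.798 CPM in F2 and 1.38, 2.03, 2.76, 2.58 and 2.40 CPM in F1 (-0.76, adjusted p = 0.258). Both overlapped between the groups, in Krt15 through F2 replicate 2 and F1 replicate 5. Among 12 dermal papilla genes none passed and the median was -0.05.

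Epidermis, where most division in resting skin is found, did not differ by test between the generations in its own markers. Krt5, a keratin of basal cells, had 517, 535, 649, 402 and 192 CPM in F2, against 335, 444, 453, 675 and 303 CPM in F1 (log2 fold change 0.00, standard error 0.30). The 14 basal genes had a median of -0.01 and summed to 1312 to 2785 CPM in F2 and 1616 to 2908 CPM in F1, and none of them had an unadjusted p under 0.05. For 30 tested genes of the suprabasal layers and cornified envelope the median was -0.003 and no gene passed; Krt10 averaged 930.1 ± 255 CPM in F2 and 1011 ± 467 CPM in F1 (-0.07). The summed basal markers overlapped between the generations, unlike the summed proliferation list (636 to 1198 CPM in F2 and 339 to 464 CPM in F1), and which cells carried the division genes was not tested.

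Some genes of stressed keratinocytes were high in 4 of the 5 F2 mice, while others of their list were not. Stfa3, a stefin protease inhibitor of mouse, was at 138, 56.8, 155, 48.2 and 10.3 CPM in F2, against 6.59, 3.22, 11.04, 6.40 and 8.42 CPM in F1 (3.01 on the log2 scale with a standard error of 0.56, limma adjusted p = 0.0318). Replicates 1 to 4 of F2 were far above every F1 mouse, and replicate 5 lay within the F1 range. S100a8, a subunit of the antimicrobial protein calprotectin, was at 65.6, 14.1, 59.9, 21.7 and 1.62 CPM in F2 and at 1.48, 1.42, 1.71, 2.89 and 1.90 CPM in F1 (3.06, standard error 0.68, adjusted p = 0.0702). Krt6b, a keratin of stressed epidermis and of the follicle, was at 64.0, 20.99, 96.8, 183 and 3.56 CPM in F2 and at 3.57, 2.93, 5.68, 7.01 and 8.198 CPM in F1 (2.83, adjusted p = 0.147). In both genes F2 replicate 5 again lay with the F1 mice. Of 17 tested genes of stressed epidermis and antimicrobial peptides none passed, 6 were higher and 1 lower at an unadjusted p under 0.05 (2.49% and 4.67% of all genes tested), and the median was 0.78. Saa3, an acute phase gene, was highest in F1 replicate 1, at 219.6 CPM, against at most 67.4 CPM in F2. Lcn2, a siderophore-binding protein gene, reached 12.4 CPM in F2 and 19.4 CPM in F1 replicate 1. Saa1 (1.26 and 5.02 CPM) and Il33 (26.8 and 29.9 CPM) likewise had a lower maximum in F2 than in F1 replicate 1. The gene lower at that p was Sprr1a, a cornified envelope precursor, at 8.34 to 16.7 CPM in F2 and 19.6 to 50.2 CPM in F1 without overlap (-1.15, adjusted p = 0.0928). S100a8 is also a neutrophil gene; of 14 listed genes of neutrophils and eosinophils 7 never reached 1 CPM and 6 passed the filter, and their part in the result was not tested.

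**Figure D3:**
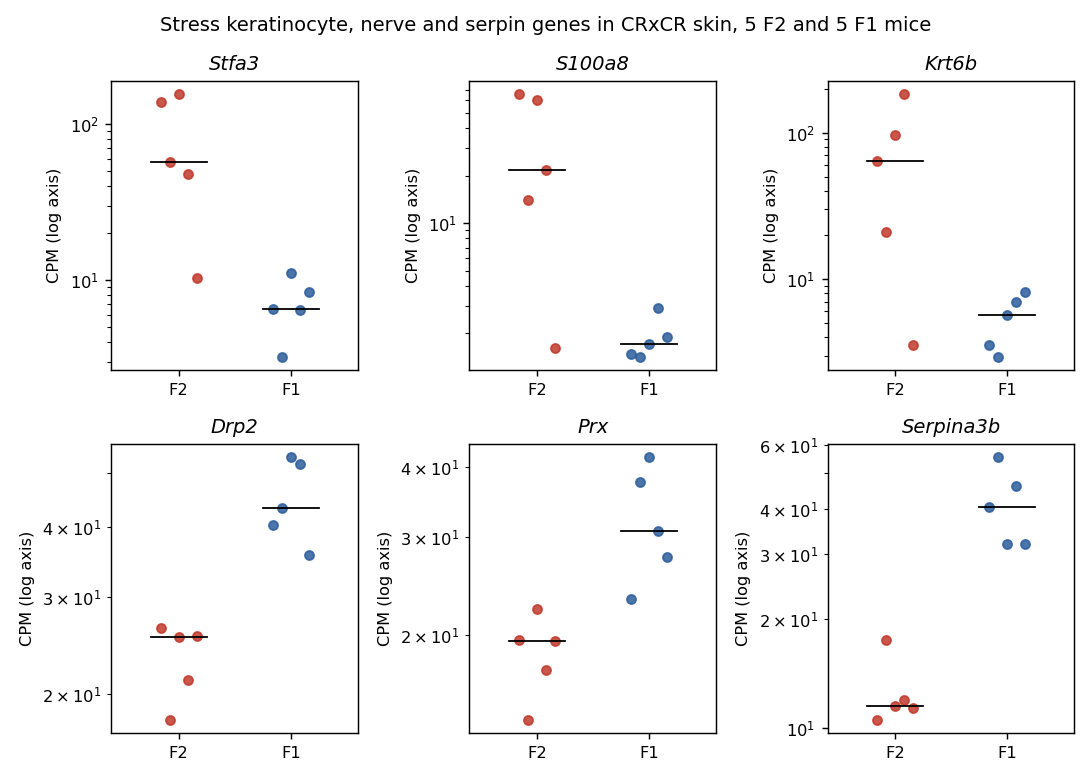
CPM (log axes) of Stfa3, S100a8 and Krt6b (top) and of Drp2, Prx and Serpina3b (bottom) in the 5 F2 mice (red, left) and 5 F1 mice (blue, right), 1 point per mouse, with the median as a line. In the top panels 4 F2 mice lie above the F1 mice and F2 replicate 5 lies among them, while in the bottom panels all F2 mice lie below all F1 mice.

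Genes of Schwann cells, which wrap the nerves of the skin in myelin, lay below 0. Of 14 genes of Schwann cells and nerve all 14 had fold changes below 0 (median -0.64), where 38.2% of all genes tested lay above 0. The adjusted p passed for 1, and for 6 after median ratio scaling (0.0551% and 0.306% of all genes tested were called lower). At an unadjusted p under 0.05 there were 9 (4.67% of all genes tested were lower). For 5 there was no overlap with F2 lower, which held for 0.845% of all genes tested. In GFxGF skin 1 of the 14 was lower and 1 higher at that p (median -0.29). In GFxCR skin 2 were lower and 1 higher (median -0.34). Over all genes tested, 175 of 16236 and 595 of 16864 were lower in these crosses. Drp2, a dystrophin relative of the Schwann cell membrane that is outside this list, had 26.3, 18, 25.3, 21.2 and 25.5 CPM in F2, against 40.3, 43.3, 53.5, 52.0 and 35.7 CPM in F1 (-0.93 on the log2 scale with a standard error of 0.17, limma adjusted p = 0.034). All 5 F2 mice lay below all 5 F1 mice, a condition of the naming rule that picked Drp2. Prx, the gene of periaxin in myelinating Schwann cells, had 19.6, 14.1, 22.2, 17.3 and 19.5 CPM in F2 and 23.2, 37.6, 41.7, 30.7 and 27.6 CPM in F1 (-0.76, limma adjusted p = 0.126, and 0.0278 after median ratio scaling). Those groups did not overlap either. Mbp, the myelin basic protein gene, averaged 54.7 ± 12.5 CPM in F2 and 102.7 ± 27.6 CPM in F1 (-0.89, limma adjusted p = 0.126, and 0.0254 after median ratio scaling), with overlap through F1 replicate 1. Sox10, the transcription factor of Schwann cells, averaged 2.88 ± 1.36 and 6.15 ± 1.72 CPM (-1.047, adjusted p = 0.198, limma).

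The remaining falls that passed the adjusted p were single genes of varied function. Serpina3b, a serine protease inhibitor, had 10.6, 17.5, 11.5, 11.98 and 11.4 CPM in F2, against 40.5, 55.5, 32.1, 46.3 and 32 CPM in F1 (-1.67 on the log2 scale with a standard error of 0.20, limma adjusted p = 0.00531). Ptger3, a receptor of prostaglandin E2, had 5.21, 2.23, 6.15, 6.58 and 2.94 CPM in F2 and 8.34, 31.6, 30.2, 22.5 and 9.74 CPM in F1 (-1.93, adjusted p = 0.0433). Cdkn1c, which encodes the cell cycle inhibitor p57, had 12.3, 6.69, 6.58, 6.86 and 6.35 CPM in F2 and 18.6, 18.6, 14.9, 14.3 and 14.9 CPM in F1 (-1.06, adjusted p = 0.0379). All 3 had no overlap, which the naming rule required, and Cdkn1c was the one cell cycle inhibitor among the falls. Nptx2, a pentraxin, averaged 2.72 ± 0.628 CPM in F2 and 6.24 ± 1.053 CPM in F1 (-1.07, adjusted p = 0.0338). The small Y RNAs Rny1 (3.43 ± 0.926 and 8.4 ± 1.54 CPM, -1.19) and Rny3 (3.77 ± 0.309 and 9.09 ± 2.79 CPM, -1.12) were lower in F2 at adjusted p-values of 0.0289 and 0.0433 in limma. Rny1 missed the threshold after median ratio scaling (adjusted p = 0.0514, limma). Aldh1a3, which makes retinoic acid, also passed (5.98 ± 2.05 CPM in F2 and 15.3 ± 4.42 CPM in F1, -1.28, adjusted p = 0.0433), with overlap.

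Next by p came genes that did not pass in the deposited CPM. Akap12 averaged 15.3 ± 3.45 CPM in F2 and 36.2 ± 13.3 CPM in F1 (adjusted p = 0.0607, limma), and the transcription factor Rfx2 6.95 ± 0.801 and 13.2 ± 2.32 CPM (adjusted p = 0.0615, and 0.0425 after median ratio scaling). Adamtsl3 averaged 10.6 ± 1.69 and 21.6 ± 6.08 CPM (adjusted p = 0.0617, and 0.043 after median ratio scaling), and the small nucleolar RNA Snora44 4.205 ± 0.681 and 14.3 ± 10.4 CPM (adjusted p = 0.0663), where F1 replicate 4 held 32.8 CPM. Of 27 tested small nuclear and nucleolar RNAs none passed, and 25 had fold changes below 0 (median -0.68). At an unadjusted p under 0.05, 11 were lower (4.67% of all genes tested), and 3 had no overlap with F2 lower (0.845%). The list did not fall in the other 2 crosses: its median was 0.59 in GFxGF skin, with 11 of 26 higher at that p, and 0.07 in GFxCR skin. Outside cell division, Ucp3 rose as well. It encodes a mitochondrial carrier of muscle and brown fat, and had 29.7, 40.8, 46.0, 38.6 and 40.6 CPM in F2, against 18.9, 9.85, 11.8, 21.8 and 11.1 CPM in F1 (1.44 on the log2 scale with a standard error of 0.22, limma adjusted p = 0.0123). Skeletal muscle genes did not move with it: their sum was 24917 to 37629 CPM in F2 and 28043 to 37262 CPM in F1, the median of 25 genes was 0.09, and Acta1 and Ckm had fold changes of 0.09 and 0.35 with overlap. The predicted genes Gm10359 and Gm12671, pseudogenes with identical values in these tables, were chosen after their values were seen. Both were at 18.7 to 61.3 CPM in F2, and in F1 at 27.5 CPM in replicate 1 and listed at 0 in the other 4 mice (adjusted p = 0.0289, limma).

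The other lists of tissue make-up held no gene past the adjusted p in the deposited CPM, and their medians ran below that of all genes for fat, vessels and smooth muscle. At an unadjusted p under 0.05, the measure used for these lists, 4.67% of all genes tested were lower and 2.49% higher. Of 15 genes of de novo lipogenesis 6 were lower at an unadjusted p under 0.05 (median -0.41), among them Scd2 (83.9 ± 27.5 CPM in F2 and 169 ± 54.3 CPM in F1, -1.01), which passed after median ratio scaling (adjusted p = 0.0254, limma). Fasn, the fatty acid synthase, averaged 89.0 ± 20.3 and 165 ± 77.7 CPM (-0.75, adjusted p = 0.597). Of 19 adipocyte genes 5 were lower at that p (median -0.42); Adipoq was at 17.5 to 83.1 CPM in F2 and 26.95 to 141 CPM in F1, and the summed list at 2546 to 4633 and 2546 to 5985 CPM. Thrsp, a lipogenic gene, had the largest fold change of these (-1.60, adjusted p = 0.113). Of 14 genes of blood endothelium 4 were lower at an unadjusted p under 0.05 (median -0.43), and of 12 smooth muscle genes 5 were (median -0.56). Red cell transcripts, a sign of blood left in the sample, summed to 3.19 to 9.61 CPM in F2 and 7.82 to 29.5 CPM in F1 (exact permutation test, two-sided p = 0.0238, n = 5 each). Of the 7 red cell genes listed 2 passed the filter. No other measure of the mice tested this way fell under 0.05, and this p was not adjusted for the number of measures. Of 15 T cell genes 2 were lower (median -0.33), of 14 sebocyte genes 1 was higher and 2 lower (median -0.16), and of 6 melanocyte genes 1 was higher (median 0.03).

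The circadian clock, which can set skin genes by the hour of collection, held no call among 19 genes (median -0.09, 2 higher and 2 lower at an unadjusted p under 0.05). Arntl was at 32.6, 17.7, 33.6, 17.7 and 19.3 CPM in F2, against 30.2, 33.3, 31.4, 27.2 and 30.6 CPM in F1 (log2 fold change -0.39, adjusted p = 0.8, limma). Replicates 2, 4 and 5 of F2 lay below every F1 mouse, and the other F2 mice lay at the top of the F1 range. Nr1d2, a repressor of the clock, was at 43.1, 44.3, 47.8, 58.3 and 42.7 CPM in F2, against 28.1, 35.3, 38.6, 40.3 and 36.8 CPM in F1 (0.40, adjusted p = 0.561, limma), without overlap. Npas2, a partner of Arntl, averaged 11.003 ± 1.23 CPM in F2 and 17.01 ± 4.92 CPM in F1 (-0.57, adjusted p = 0.411), and the repressor Bhlhe41 5.82 ± 2.18 and 9.12 ± 2.21 CPM (-0.64, adjusted p = 0.512), both with overlap. Ciart, a clock output gene of opposite phase, averaged 2.18 ± 0.753 CPM in F2 and 1.32 ± 0.441 CPM in F1 (0.54, adjusted p = 0.624). Fold changes were 0.58 for Dbp, 0.40 for Per2, 0.35 for Per3, -0.29 for Per1 and -0.38 for Nr1d1, with overlap in these 5.

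**Figure D4:**
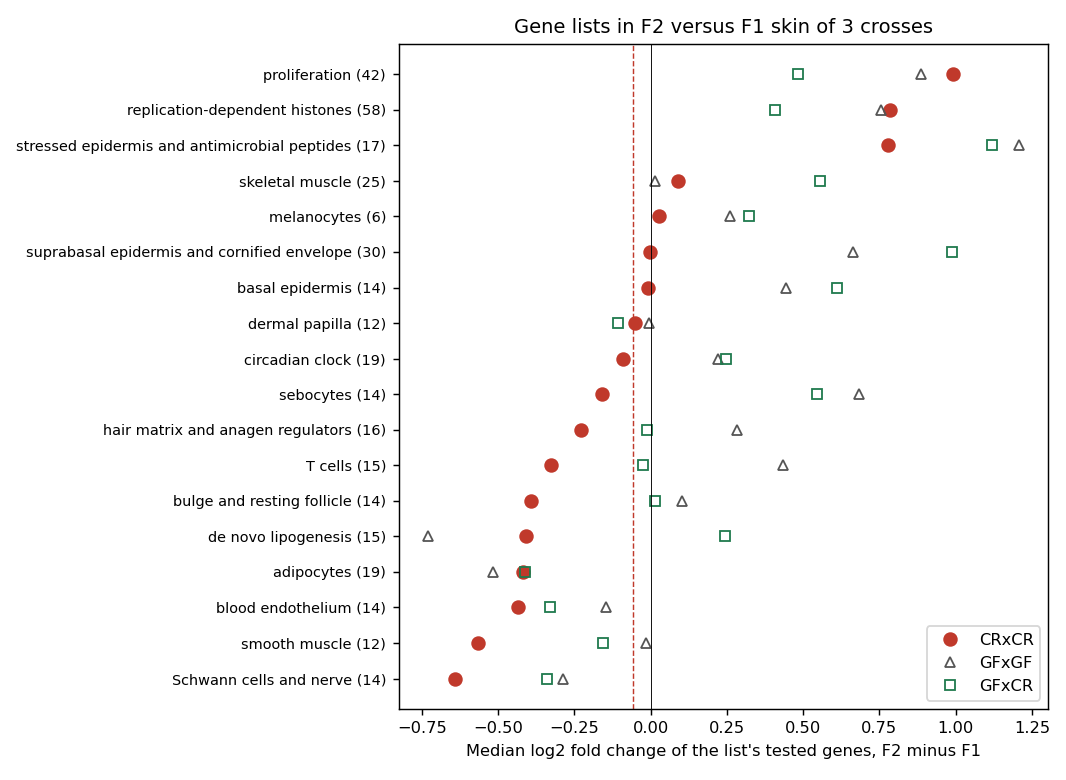
Median log2 fold change of F2 minus F1 (horizontal axis) for 18 gene lists (vertical axis, number of genes tested in brackets) in CRxCR skin (red circles), GFxGF skin (open triangles) and GFxCR skin (open squares), with the CRxCR median of all genes tested as a dashed line at -0.06. The proliferation list (0.99, 0.89 and 0.48) and the histone list lie above 0 and the Schwann cell list below 0 in all 3 crosses, while the basal epidermis list lies at -0.01, 0.44 and 0.61.

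The same shift between generations was then measured in mice of the other 2 crosses, which share no animal with the CRxCR groups. GFxGF skin stood in the same 2 tables and so shares their factor for each gene, whereas GFxCR skin stood in another pair of tables. GFxGF skin had 1 call of 16236 genes (0.00616%) and GFxCR skin 27 of 16864 (0.16%), with 3 mice in the smallest group; without F1 replicate 2 or F1 replicate 3 of GFxCR skin 1 passed. All 45 genes higher in F2 CRxCR skin had fold changes above 0 in GFxGF skin and in GFxCR skin, with medians of 1.12 and 0.88, beside medians of 0.14 and 0.04 over all genes. At an unadjusted p under 0.05, 35 of the 45 were higher in F2 GFxGF skin and 34 in F2 GFxCR skin, where 7.01% and 6.53% of all genes tested were. Epidermal markers were higher there too: of 30 suprabasal genes 17 were higher at that p in GFxGF skin (median 0.66) and all 30 in GFxCR skin (median 0.99), against 1 higher and 1 lower in CRxCR skin (median -0.003). The 14 basal genes had medians of 0.44 and 0.61, against -0.01 in CRxCR skin, and the part of epidermal content in the shift of the division genes was not tested. Of the 27 GFxCR calls, Cenpf alone is in the proliferation list, and others include the cornification genes Casp14 and Hrnr and the glucocorticoid-induced genes Fkbp5 and Zbtb16. Stfa3 (3.50, limma adjusted p = 0.00208) and Ucp3 (1.76, limma adjusted p = 0.0137), both also called higher in CRxCR skin, were among the 27. Of the 9 genes that were lower, 8 had fold changes below 0 in each, and the exception was Cdkn1c in both (0.28 and 0.04).

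Mki67 was at 89.8, 155 and 73.7 CPM in the F2 GFxGF mice, against 39.8, 37.2 and 33.9 CPM in the F1 GFxGF mice (log2 fold change 1.44, standard error 0.28). In the 6 F2 GFxCR mice it ran from 72.9 to 128 CPM, against 45.1, 32.2 and 64.7 CPM in the 3 F1 mice (1.12, standard error 0.24). Neither cross had overlap between the generations. Serpina3b was at 12.97, 6.27 and 8.63 CPM in F2 GFxGF mice and at 18.6, 22.4 and 11.4 CPM in F1 GFxGF mice (-0.88, standard error 0.33), and at 7.73 to 23.4 CPM in F2 GFxCR mice and 22.2, 26.2 and 14.4 CPM in F1 GFxCR mice (-0.35, standard error 0.31). In both crosses the groups overlapped for Serpina3b.

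The difference of the 2 shifts, CRxCR minus GFxGF, was tested in 1 fit of 16 mice. Limma called no gene of 17402 (0%), while 799 (4.59%) were under 0.05 before adjustment. Of these 799, 63 lay above 0 and 736 below 0 (460 and 516 after median ratio scaling). The median difference over all genes was -0.2 (0.003 after median ratio scaling). For Mki67 the difference was -0.08 and for Top2a 0.18, with adjusted p-values of 0.981 and 0.952 in limma. A p that misses the threshold does not show that the shifts were equal. For Cdkn1c the difference was -1.33 (standard error 0.38) with an adjusted p of 0.923 in limma.

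**Figure D5:**
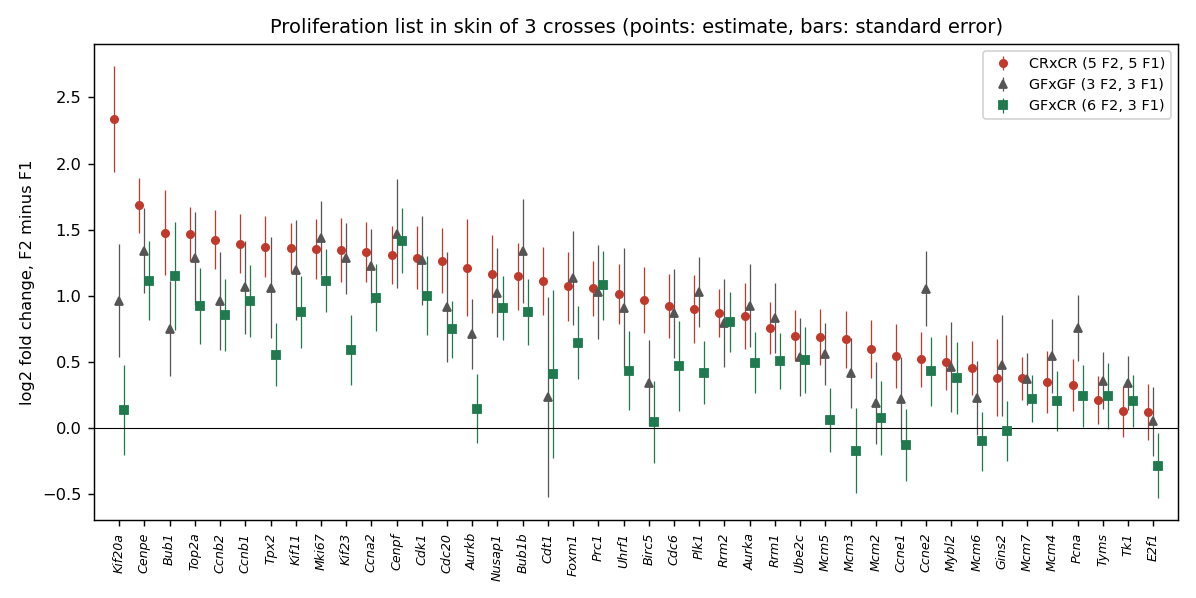
Log2 fold change of F2 minus F1 (vertical axis, bars are standard errors) for the 42 proliferation genes (horizontal axis, sorted by CRxCR skin) in CRxCR (red), GFxGF (grey) and GFxCR (green) skin. All CRxCR values lie between 0.12 and 2.34, and Mcm3, Mcm6, Ccne1, E2f1 and Gins2 lie below 0 in GFxCR skin.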

How the data were processed

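RNA of whole back skin had been sequenced from stranded total RNA libraries after removal of ribosomal RNA. The authors quantified reads with Kallisto against Ensembl genes in R 4.2 and deposited CPM values; the genome build is not given in the sources used here. Only the deposited CPM were used, F2 and F1 mice standing in separate tables that were joined on 38605 names listed once in all 4 skin tables. Left out were 27 names turned into dates. Genes that reached 1 CPM in 5 or more mice were tested with limma 3.58.1 in R 4.3.3 on log2(CPM + 0.5), with a trend of variance on mean, two-sided, and Benjamini-Hochberg adjustment. Approximate depth came from the smallest CPM step of each mouse. The script was tested on simulated data.

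Named were the 12 largest rises and 12 largest falls with an adjusted p under 0.05, a log2 fold change beyond 1, no overlap and at least 5 CPM in the higher group, without predicted, pseudogene or sex-linked names, filled by smallest p. From each list described, up to 5 members of smallest p and those that define a role were also named. Members and the 44 lists were chosen with earlier results of these data known. Alternatives were other pseudocounts, filters, scalings, sample weights, a replicate block, a Y-linked covariate, other tables and leaving out each mouse. Deviations from the group mean correlated at -0.277 to 0.159 between same-numbered F2 and F1 mice, which cannot show whether the numbers mark a pairing. Promoters came from RefSeq (GRCm38.p6). Some genes that the rule names are not reported here.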

Additional observations from a re-analysis of the deposited data

Results flagged for a closer look

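In 8 cases a single mouse stood far from the others of its group, by the gap to the nearest mouse over the range of the 5. Among 68 groups of values looked at, chance alone gives about 1 in 20. In F2, replicate 1 held 30.5 CPM of Ect2 and 12.3 CPM of Cdkn1c, and replicate 2 held 17.5 CPM of Serpina3b, each the highest of the F2 mice. In F1, Ccnb2 was lowest in replicate 1 (1.78 CPM) and Rfx2 lowest in replicate 5 (9.18 CPM). F1 replicate 4 held 32.8 CPM of Snora44 and 60240 CPM of mt-Rnr1, the highest of F1, and 13628 CPM of Rpph1, the lowest. The shift between generations differed between CRxCR and GFxGF skin, by the test of the difference after median ratio scaling, for Vmn2r96 (difference 2.82, adjusted p = 0.0412, limma with Benjamini-Hochberg adjustment).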

How the results depend on the processing

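All 54 genes kept their direction under every alternative in which they were tested. The count of 54 became 3 with no filter, 196 after median ratio scaling, 195 after quantile normalization, 192 without the 20 highest genes, 836 with array quality weights (198 higher, 638 lower) and 23 with a replicate block, and ran from 13 to 66 when 1 mouse was left out. The 196 genes at the study's threshold became 110 with a filter at 5 CPM and 333 with array weights (184 to 240 without 1 mouse). The 196 called after median ratio scaling became 52 with a replicate block and 305 with array weights, and 87 to 182 without 1 mouse; these alternatives were chosen after seeing the data. The single GFxGF call became 0 with a pseudocount of 1, a filter at 5 CPM, median ratio scaling or a replicate block (0 to 2 without 1 mouse). The 27 GFxCR calls became 16 after median ratio scaling and 0 with a replicate block (1 to 34 without 1 mouse). The difference of shifts had 1 call with a pseudocount of 1 and 1 after median ratio scaling (0 to 1 without 1 mouse). The labels do not say that a replicate number marks a shared litter or day, so the block is no paired test. The causes of these changes were not tested.

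Signs turned for these fold changes, none of which passed the test. They lay within 0.1 of 0 in the deposited CPM except for Lor (-0.41) and Flg (0.22). The Dct log2 fold change was 0.031 after median ratio scaling, 0.062 after quantile normalization, 0.048 without the 20 highest genes and 0.32 with the Y-linked covariate. The Krt10 log2 fold change was 0.13 after quantile normalization, 0.0077 without the 20 highest genes and 0.17 with that covariate, under which the Awat2 log2 fold change was 0.24 and the Lor log2 fold change 0.033. The Krt5 log2 fold change was -0.022 with array weights. Without 1 mouse the ranges were -0.091 to 0.39 for the Tchh log2 fold change, -0.10 to 0.18 for the Lef1 log2 fold change, -0.16 to 0.16 for Dct, -0.054 to 0.16 for the Tyr log2 fold change, -0.064 to 0.21 for the Acta1 log2 fold change, -0.23 to 0.24 for Awat2, -0.15 to 0.29 for Krt5, -0.21 to 0.17 for Krt10, -0.66 to 0.0295 for Lor and -0.051 to 0.58 for the Flg log2 fold change.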
